A study of Mus musculus with 6 samples.

Results

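In stimulated primary cultures labelled as osteocytes, the 10 genes of NF-κB subunits and of the inhibitors that feed back on them were examined. They were selected by symbol from the deposited count table of 56748 genes. No rule on their values was used, but earlier results of these data were known. The set comprised the 5 subunit genes *Rela*, *Nfkb1*, *Rel*, *Nfkb2* and *Relb* and the classical inhibitor genes *Nfkbia*, *Nfkbib* and *Nfkbie*. It also held the nuclear inhibitor gene *Nfkbiz* and *Tnfaip3*. All 10 passed the filter on low counts that left 17146 genes for testing, with 326 to 12311 counts per library. The libraries comprised 3 from cultures labelled WT (C57BL/6J mice in the study's methods) and 3 from cultures labelled cKO, which by the methods carried homozygous floxed *Gsdmd* alleles and a Cre recombinase driven by the promoter of *Dmp1* (*Gsdmd* fl/fl; DMP1-Cre). Cells were released from the long bones of mice, 7 weeks old in the methods, after the marrow had been flushed out, and were cultured for 7 days. Both groups had received lipopolysaccharide (LPS, 10 ng/mL, 3 h) and then aluminum hydroxide (20 µg/mL, a further 3 h), so that the genotypes were compared under stimulation and no unstimulated cells were analysed here. The number of mice behind each culture is not given in the sources used here, and the p-values measure the spread between these libraries, which may be technical.

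NF-κB is a family of dimeric transcription factors. In resting cells the dimers are held in the cytoplasm by IκB proteins. LPS, acting through Toll-like receptor 4, activates the IκB kinase complex, the IκB proteins are degraded, and the freed dimers enter the nucleus, where their targets include the genes of several of their own subunits and inhibitors. In bone, NF-κB is required for the formation of osteoclasts downstream of RANK, the receptor for the RANKL that osteocytes produce.

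Library totals lay between 39566835 and 49734046 counts on genes. *Gsdmd*, the targeted gene, was higher, not lower, in the libraries labelled cKO (log2 fold change 0.69, adjusted p = 2.27e-06, edgeR). It was counted 885 to 1045 times in cKO against 549 to 699 times in WT, so that each direction rests on the labels. Counts were pooled over all exons of the gene, those between the loxP sites included. *Xist* was counted 44817 to 51216 times in cKO and 0 to 4 times in WT, and the Y-linked *Ddx3y* 0 times in cKO and 4033 to 5455 times in WT, hence sex and genotype cannot be told apart. The study's methods describe the mice as matched for age and sex, which these counts do not show. Of the osteocyte markers, *Sost* and *Dkk1* had 0 counts in every library, *Dmp1* at most 6 and *Mepe* at most 2, and only *Pdpn* passed the filter and was lower in cKO (log2 fold change -0.28, adjusted p = 2.99e-05, edgeR). The name osteocyte therefore rests on the labels too. All 17 tested macrophage markers of 18 were higher in cKO. Their summed level was 1273 to 1441 CPM (counts scaled to libraries of 1000000) in WT and 7076 to 7437 CPM in cKO. Their part in the results below was not tested. A smaller level in bulk RNA can mean fewer cells of a type or less RNA per cell, which cannot be told apart. Among the other marker lists, 2 of 5 tested osteoblast genes were higher and 3 lower, 1 of 4 osteoclast genes was higher and 1 lower, 1 of 5 endothelial genes was higher and 4 lower, 2 of 4 chondrocyte genes were higher and 2 lower, the 1 tested neutrophil gene was higher, and 0 of 6 lymphocyte genes had enough counts to be tested. Some of these differences were large. Of the chondrocyte genes, *Acan* had a mean of 0.124 CPM in WT and 20.2 CPM in cKO, and *Col2a1* one of 1428 and 798 CPM. The endothelial list had a median log2 fold change of -3.08. Its summed level was nonetheless alike, at 6.41 to 6.84 CPM in WT and 6.32 to 6.71 CPM in cKO. The 1 higher gene, *Kdr*, had a mean of 1.35 CPM in WT and 5.55 CPM in cKO. Within WT, replicate 3 stood apart on the second principal component, which held 9.19% of the variance.

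Promoter sequences are shown first for the genes with the largest rise and the largest fall among the 10, because many NF-κB targets, the inhibitor genes included, carry binding sites close to their start. RefSeq windows of the GRCm38.p6 build, from 250 bases before to 50 bases after a transcript start, were found for 7 of the 10 genes and placed on GRCm39, the build of the count table, by exact match. *Nfkb1*, *Relb* and *Nfkbiz* had no window in the table used. The 250 bases before the start of *Nfkbie* (chr17:45866376-45866625, plus strand) and of *Nfkbia* (chr12:55539433-55539682, minus strand) are written 5′ to 3′, with matches to the 10-base κB consensus on either strand in capitals.
Nfkbie: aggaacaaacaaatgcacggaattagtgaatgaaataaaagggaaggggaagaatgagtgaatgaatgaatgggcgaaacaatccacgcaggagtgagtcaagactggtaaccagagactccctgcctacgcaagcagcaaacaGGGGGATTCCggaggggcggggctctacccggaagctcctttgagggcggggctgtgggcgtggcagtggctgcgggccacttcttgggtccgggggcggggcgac
Nfkbia: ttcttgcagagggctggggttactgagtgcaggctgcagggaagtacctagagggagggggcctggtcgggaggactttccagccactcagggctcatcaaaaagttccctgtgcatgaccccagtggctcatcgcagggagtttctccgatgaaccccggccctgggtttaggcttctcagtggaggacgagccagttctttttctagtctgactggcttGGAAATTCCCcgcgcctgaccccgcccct
Each of these windows held 1 match, which began 106 bases before the start in *Nfkbie* and 29 bases before it in *Nfkbia*. The remaining genes with a match are shown by the site and its flanks, for *Rel* at chr11:23721041-23721071 (minus strand), for *Tnfaip3* at chr10:18891264-18891293 and chr10:18891151-18891180 (minus strand), and for the first of 3 windows of *Nfkb2* at chr19:46293127-46293157 (plus strand).
Rel: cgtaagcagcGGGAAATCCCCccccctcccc
Tnfaip3 distal: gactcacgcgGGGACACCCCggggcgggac
Tnfaip3 proximal: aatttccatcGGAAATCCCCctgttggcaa
Nfkb2: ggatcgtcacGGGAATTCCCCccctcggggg
In *Rel* and at the *Nfkb2* site shown, matches on both strands overlapped and were joined into 11 bases. A further *Nfkb2* match in the same window, beginning 11 bases before the start, and those in its windows 2 and 3 are not printed. The consensus reads GGG, A or G, any 2 bases, 2 of C or T, and CC. It was found in a window of 5 of the 7 genes, compared with 8.46% of all 32851 windows and 9.55% of all 27025 genes in the table. *Tnfaip3* had 2 windows, and both of its matches lay in window 2. The consensus was absent from window 1 of *Tnfaip3* and from the windows of *Rela* and *Nfkbib*. This says only that these letters are not in those 300 bases. These matches describe sequence only, and binding was not measured.

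**Figure D1:**
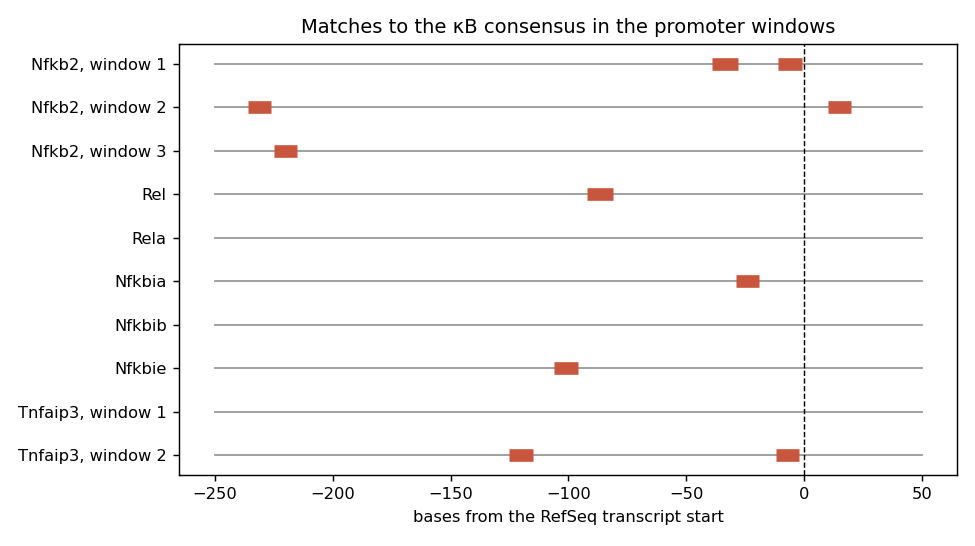
Position of matches to the κB consensus (red blocks) in the RefSeq promoter windows of 7 genes, with distance from the transcript start in bases on the x axis and 1 line per window. *Rel*, *Nfkbia* and *Nfkbie* had 1 site each, upstream of the start, and the windows of *Rela* and *Nfkbib* and window 1 of *Tnfaip3* had none.

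The 10 genes did not move in 1 direction. *Rel*, *Relb*, *Nfkbie* and *Nfkbiz* were higher in cKO than in WT and *Nfkbia* and *Tnfaip3* were lower, at a Benjamini-Hochberg adjusted p-value below 0.05 over all tested genes in the quasi-likelihood test of edgeR. *Rela*, *Nfkb1*, *Nfkb2* and *Nfkbib* did not pass. The same test called 39.3% of all tested genes, 20.1% higher and 19.2% lower, hence the 4 higher and 2 lower of 10 are read against a large background. The changes were small, and none of the 10 reached a log2 fold change of 1 in size, as 11.2% of all tested genes did while passing the test (6.56% higher and 4.64% lower). Of the 10, only 3, namely *Nfkbie*, *Rel* and *Relb*, had a log2 fold change larger in size than the median size of 0.25 over all tested genes. The median over the 10 was 0.087, beside 0.0077 over all tested genes. Libraries of the genotypes did not overlap for 7 of the 10 genes, compared with 49.2% of all tested genes, and cKO lay above WT for 5 of them and below for 2 (25.3% and 23.9% of all tested genes).

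**Figure D2:**
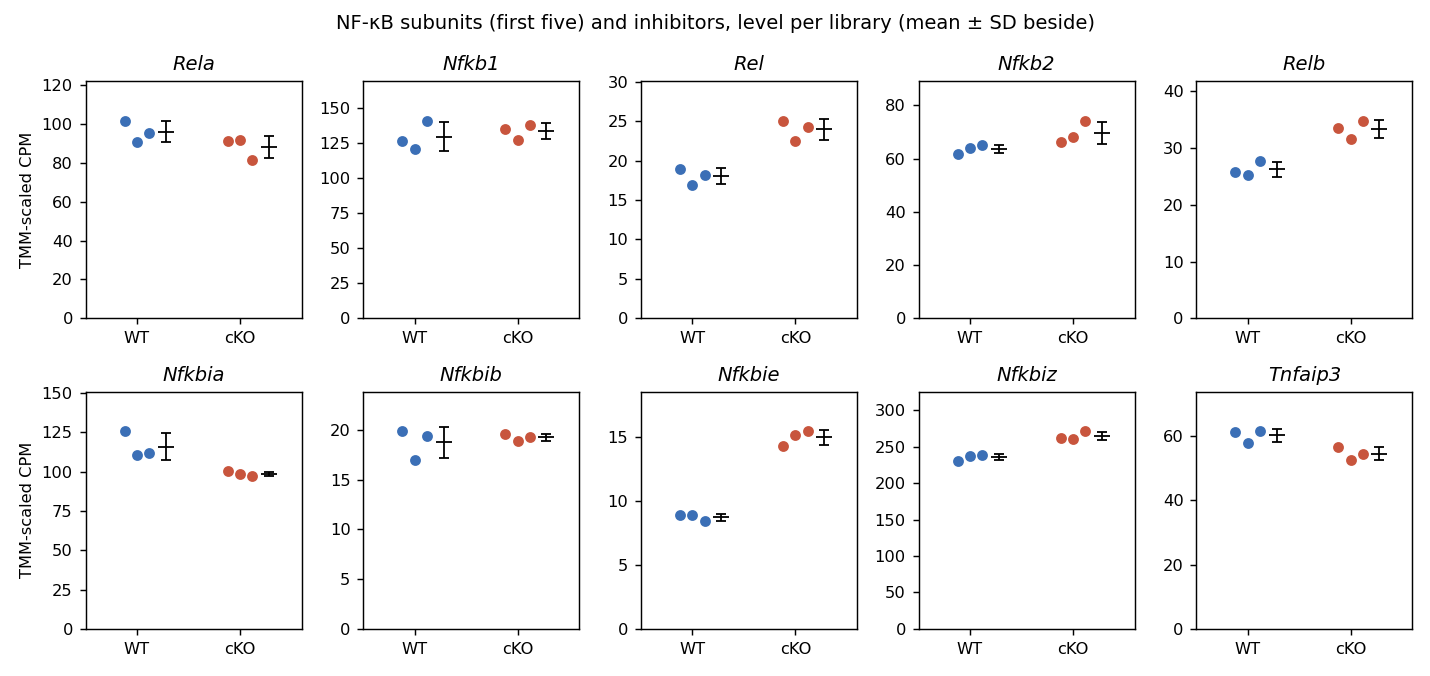
TMM-scaled CPM (y axes, from 0) of the 10 genes in each of the 3 WT (blue) and 3 cKO (red) libraries, with the mean ± SD in black beside each group. *Nfkbie* shows the widest separation, from 8.40 to 8.91 CPM in WT and from 14.3 to 15.5 CPM in cKO.

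*Rela* (ENSMUSG00000024927, chromosome 19 from 5687511 to 5698158) encodes p65, the subunit with a transactivation domain that forms the main LPS-induced dimer together with p50. Its level was 101.8, 90.8 and 95.4 CPM in the WT libraries and 91.4, 91.8 and 81.6 CPM in the cKO libraries. The groups overlapped, since WT replicate 2 lay below 2 of the cKO libraries. The log2 fold change was -0.12, with a 95% interval from -0.24 to -0.000774 and an adjusted p-value of 0.106 by edgeR. Without WT replicate 2 it was -0.17 and passed (adjusted p = 0.0383), and without cKO replicate 3 it was -0.066 (adjusted p = 0.447, edgeR). *Nfkb1* (ENSMUSG00000028163, chromosome 3 from 135290416 to 135397308) encodes p105, the precursor of p50, which retains dimers in the cytoplasm until it is processed. It was measured at 126, 120.5 and 141 CPM in WT and at 135, 127 and 138 CPM in cKO. All 3 cKO values lay within the WT range, and the log2 fold change was 0.045 (95% interval -0.073 to 0.16, adjusted p = 0.576). Without WT replicate 3 it was 0.11 (adjusted p = 0.0729, edgeR).

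*Rel* (ENSMUSG00000020275, chromosome 11 from 23686847 to 23720970) encodes c-Rel, a transactivating subunit best known from lymphocytes and myeloid cells. It stood at 19.0, 16.9 and 18.2 CPM in WT and at 25.1, 22.5 and 24.3 CPM in cKO. Every cKO library was above every WT library, and the mean rose from 18.0 ± 1.05 to 24.0 ± 1.30 CPM (SD, n = 3 each). On the log2 scale the difference was 0.41 (standard error 0.0803; edgeR, adjusted p = 0.000464), and its range was 0.36 to 0.45 when any 1 library was omitted. The macrophage markers, which include *Ptprc* and *Spi1* of blood cells, were higher in the same 3 libraries (median log2 fold change of the list 3.02). These 3 are the whole cKO group, so the same can be said of every gene that was higher in cKO. A link to *Rel* was not tested.

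The subunits of the alternative pathway form a dimer of RelB with p52, which arises when p100 is processed. *Nfkb2* (ENSMUSG00000025225, chromosome 19 from 46292759 to 46300824), the gene of p100, was counted at 61.8, 63.9 and 65.0 CPM in WT and at 66.1, 68.3 and 74.3 CPM in cKO. The groups did not overlap, but the log2 fold change of 0.13 (95% interval 0.016 to 0.24) did not pass (adjusted p = 0.0666, edgeR). Leaving out cKO replicate 1 brought it to 0.17 (adjusted p = 0.0465), leaving out cKO replicate 3 brought it to 0.080 (adjusted p = 0.327, edgeR), and scaling by library size only gave 0.15 (adjusted p = 0.0303). Upper-quartile scaling gave 0.061. *Relb* (ENSMUSG00000002983, chromosome 7 from 19340142 to 19363363) was at 25.7, 25.3 and 27.8 CPM in the WT libraries and at 33.6, 31.6 and 34.9 CPM in the cKO libraries, again without overlap. Its 95% interval ran from 0.20 to 0.49 on the log2 scale, and the fold change passed under each of the 15 alternative settings tried. Within each library, the level of *Relb* per length was 0.467 to 0.504 times that of *Nfkb2* in WT and 0.546 to 0.599 times in cKO.

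**Figure D3:**
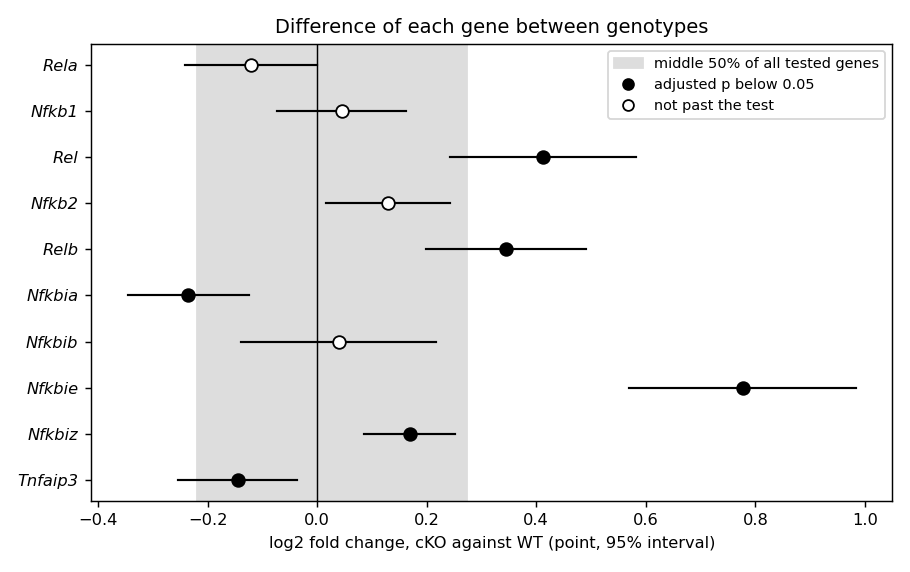
Log2 fold change of the 10 genes between cKO and WT (x axis) as points with 95% intervals, filled where the adjusted p-value was below 0.05, over a grey band from -0.22 to 0.27 between the lower and the upper quartile of all tested genes. *Nfkbie*, *Rel* and *Relb* lie above the band, *Nfkbia* lies just below it and the rest lie within it.

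Among the classical inhibitors, IκBα is degraded within minutes of LPS and is then made again from newly induced mRNA. *Nfkbia* (ENSMUSG00000021025, chromosome 12 from 55536195 to 55539432), its gene, stood at 126, 110.3 and 112 CPM in the WT libraries and at 100.2, 98.4 and 97.1 CPM in the cKO libraries. All cKO values lay below all WT values, and WT replicate 1 was the highest. The log2 difference was -0.23 (standard error 0.0526; edgeR, adjusted p = 0.00159), a mean of 116 ± 8.47 CPM in WT and 98.6 ± 1.56 CPM in cKO (SD, n = 3 each). Without WT replicate 1 it was smaller in size but still passed, and over all 15 alternatives it lay between -0.30 and -0.19 with adjusted p-values up to 0.0126.

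*Nfkbie* (ENSMUSG00000023947, chromosome 17 from 45866629 to 45874095), which encodes the inducible inhibitor IκBε, moved the other way and changed most of the 10. It was measured at 8.89, 8.91 and 8.40 CPM in WT and at 14.3, 15.1 and 15.5 CPM in cKO, with a gap between the groups far wider than either group. The mean was 8.73 ± 0.288 CPM in WT and 14.97 ± 0.593 CPM in cKO (SD, n = 3 each), 1.71-fold higher. This is 0.78 on the log2 scale (95% interval 0.57 to 0.98; edgeR, adjusted p = 4.53e-06). *Nfkbib* (ENSMUSG00000030595, chromosome 7 from 28457676 to 28466937) encodes IκBβ, which is less readily induced. At 19.9, 17.0 and 19.4 CPM in WT and 19.6, 18.9 and 19.3 CPM in cKO, its groups overlapped, with a log2 fold change of 0.040 (95% interval -0.14 to 0.22). In each library the level of *Nfkbie* per length was a small part of that of *Nfkbia*, 0.0374 to 0.0427 of it in WT and 0.0755 to 0.0841 of it in cKO. The pairs of genes set against each other were chosen after their values had been seen and were not tested.

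*Nfkbiz* (ENSMUSG00000035356, chromosome 16 from 55631738 to 55659262) encodes IκBζ, which is induced by LPS, acts in the nucleus with p50 and is needed for the induction of a subset of targets such as *Il6* and *Lcn2*. Its level was 230.5, 237 and 238 CPM in WT and 262, 260.0 and 271 CPM in cKO, without overlap. The difference was small, 0.17 on the log2 scale (standard error 0.0392; edgeR, adjusted p = 0.00211), and it lay between 0.10 and 0.19 over the 15 alternatives. *Tnfaip3* (ENSMUSG00000019850, chromosome 10 from 18876658 to 18891405) encodes A20, a ubiquitin-editing enzyme that terminates signalling upstream of the IκB kinases. It was at 61.3, 57.9 and 61.4 CPM in WT and at 56.4, 52.4 and 54.4 CPM in cKO, so that the cKO libraries lay just below the lowest WT library. The difference of -0.15 on the log2 scale (standard error 0.0516) passed narrowly (edgeR, adjusted p = 0.0334). It no longer passed without WT replicate 1 (adjusted p = 0.0765), WT replicate 3 (0.0576), cKO replicate 2 (0.148) or cKO replicate 3 (0.0955), each adjusted p from edgeR.

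Levels of different genes were compared per length, as CPM per kilobase of the deposited gene length. *Nfkbia* was the highest of the 10 in both groups (72.1 ± 5.26 in WT and 61.2 ± 0.967 in cKO, CPM per kilobase), followed by *Nfkbiz* (46.9 ± 0.831 and 52.7 ± 1.16), *Rela* (31.2 ± 1.80 and 28.7 ± 1.88), *Nfkb2* (13.9 ± 0.355 and 15.2 ± 0.922) and *Nfkb1* (10.7 ± 0.865 and 11.04 ± 0.469; SD, n = 3 throughout). *Nfkbib* came next in both groups. Its libraries overlapped with those of the next gene down, which was *Tnfaip3* in WT and *Relb* in cKO, and the libraries of all other neighbours were apart. *Nfkbie* (2.87 ± 0.0945 and 4.92 ± 0.195) and *Rel* (2.41 ± 0.140 and 3.21 ± 0.174) were the lowest in both groups. Thus the genes with the largest fold changes were the least abundant of the 10 per length, whereas the most abundant, *Nfkbia*, was lower in cKO. Among all tested genes, *Nfkbia* stood at the 97.0th percentile per length in WT and *Rel* at the 43.7th. The deposited length of *Nfkb2* was 58.0% of its merged exons in GENCODE M39, the smallest share of the 10, so that its level per length depends on the annotation.

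The sum of the 5 subunit genes per length was 62.3 to 66.5 CPM per kilobase in WT and 66.4 to 67.3 in cKO, and shares within it do not depend on the scaling between libraries. *Rela* made up 49.996%, 47.5% and 46.7% of this sum in the WT libraries and 44.2%, 45.0% and 40.0% in the cKO libraries. The share of *Relb* was 10.0%, 10.5% and 10.8% in WT and 12.8%, 12.2% and 13.5% in cKO. For *Rel* the share was 3.71 ± 0.106% in WT and 4.81 ± 0.235% in cKO, whereas *Nfkb1* was at 16.5 ± 0.941% and 16.5 ± 0.690% and *Nfkb2* was at 21.4 ± 1.02% and 22.7 ± 1.51% (SD, n = 3 each). The shares of *Rela*, *Relb* and *Rel* did not overlap between the groups. In the two-sided exact permutation test over the 6 libraries each of these had a p-value of 0.1, the smallest that 3 against 3 allows, or 0.14 adjusted over the 7 values of this kind, so that the design cannot reach 0.05.

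**Figure D4:**
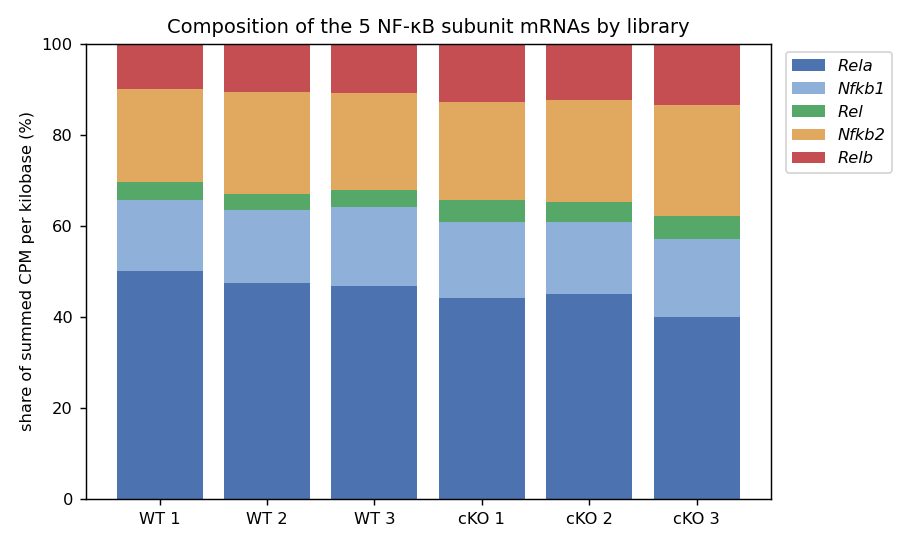
Share of each of the 5 subunit genes in their summed CPM per kilobase (y axis, percent) in each library. The *Rela* segment is 46.7% to 49.996% in WT and 40.0% to 45.0% in cKO, and the *Relb* segment is wider in every cKO library.

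The ratio of the alternative to the other subunits, *Nfkb2* and *Relb* over *Rela*, *Nfkb1* and *Rel* per length, was 0.436, 0.490 and 0.472 in WT and 0.521, 0.530 and 0.610 in cKO, without overlap (exact permutation p = 0.1). The sum of *Nfkbia*, *Nfkbib* and *Nfkbie* was 1.36, 1.27 and 1.22 times the sum of the subunits in WT and 1.13, 1.13 and 1.12 times in cKO, again without overlap (exact permutation p = 0.1, the smallest possible). Most of this sum is *Nfkbia*, so that the ratio was lower in cKO although *Nfkbie* was higher. These are ratios of mRNA and do not give those of the proteins, which are also controlled by degradation and processing.

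The other genes of the pathway were summarised over a list of 49 kinases, adapters and regulators, of which 48 were tested. This list was also written with earlier results known, among them the study's report of higher *Card9*. In cKO 20 were higher and 8 lower, or 41.7% and 16.7% of those tested, compared with 20.1% and 19.2% of all tested genes, with a median log2 fold change of 0.068. The lower count was 4 without cKO replicate 3, 5 without cKO replicate 1 and 13 under upper-quartile scaling. Over all tested genes, the lower counts under these settings were 2796 of 17647, 2877 of 17768 and 4294 of 17146, in the same order. Of the IκB kinase complex, the catalytic subunit gene *Ikbkb* was higher, at 37.7 ± 1.23 CPM in WT and 53.8 ± 0.919 CPM in cKO (0.51 on the log2 scale, adjusted p = 5.43e-07 by edgeR), and the scaffold gene *Ikbkg* (NEMO) likewise, at 108 ± 3.96 and 139 ± 5.10 CPM (0.36, adjusted p = 5.70e-06). *Chuk*, the gene of the other catalytic subunit, was at 58.5 ± 3.20 CPM in WT and 61.1 ± 2.36 CPM in cKO and did not pass (log2 fold change 0.063, 95% interval -0.052 to 0.18). *Map3k14*, the kinase of the alternative pathway (NIK), was at 23.2 ± 3.15 and 20.2 ± 1.63 CPM and did not pass either (adjusted p = 0.119). The higher genes with the smallest p-values were *Card9*, an adapter of myeloid receptors, with a log2 fold change of 3.01, *Ikbkb*, *Birc3* (0.48), a ubiquitin ligase of the TNF receptor complex, *Tbk1* (0.47), an IKK-related kinase, and *Ikbkg*. The lower genes with the smallest p-values were *Rnf11* (-0.52), a partner of A20, *Ripk2* (-0.38), the kinase of NOD receptors, *Otud7b* (-0.23), a deubiquitinase, *Bcl10* (-0.23), which acts with CARD proteins, and *Map3k7* (-0.15), which encodes TAK1. Among the remaining atypical IκB genes, *Nfkbid* was higher, at 1.81 ± 0.170 CPM in WT and 4.74 ± 0.483 CPM in cKO (1.39 on the log2 scale, adjusted p = 1.53e-05), and *Bcl3* was at 40.5 ± 1.48 and 41.1 ± 2.16 CPM (adjusted p = 0.817, edgeR).

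Of 42 textbook NF-κB target genes outside these lists, 39 were tested, and 21 were higher and 9 lower in cKO, or 53.8% and 23.1%, compared with 20.1% and 19.2% of all tested genes, with a median log2 fold change of 0.33. The higher genes with the smallest p-values were *Il1rn*, the interleukin-1 receptor antagonist (log2 fold change 2.30), the collagenase gene *Mmp13* (1.74), the stromelysin gene *Mmp3* (0.78), *Sod2*, a mitochondrial antioxidant enzyme (0.84), and complement *C3* (0.88). *Mmp3* reached 10126 ± 308 CPM in cKO from 5894 ± 108 CPM in WT (SD, n = 3 each). The lower ones were *Mmp9* (-2.83), the macrophage growth factor gene *Csf1* (-0.55), *Ptgs2*, which encodes cyclooxygenase-2 (-0.63), the early response gene *Ier3* (-0.41) and *Nos2*, the inducible nitric oxide synthase (-0.28), each with an adjusted p-value of at most 5.87e-06 by edgeR. The range of their log2 fold changes was wider than that of the 10 subunit and inhibitor genes. The list was written from general knowledge but with earlier results of these data known, so its share of higher genes is not independent of them. The study had itself reported RANKL (gene *Tnfsf11*), *Tnf*, *Il6* and the mediators it calls Mip1, Mip2 and Cxcl as higher in these cells. *Tnfsf11*, *Tnf*, *Il6* and several Cxcl genes are on the list. Dependence on NF-κB was not measured in these cells.

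**Figure D5:**
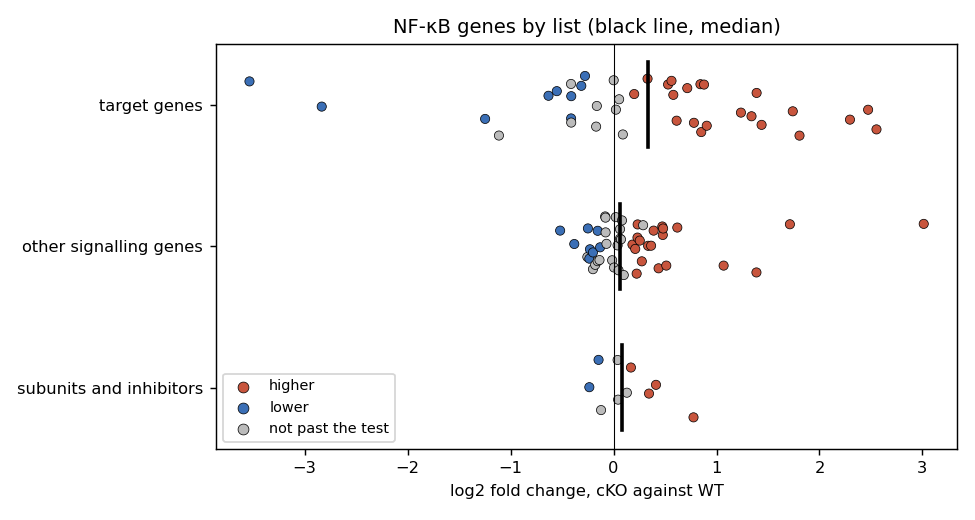
Log2 fold change between cKO and WT (x axis) of the 10 subunit and inhibitor genes, 48 other signalling genes and 39 target genes, coloured by whether they passed the test as higher or lower, with the median of each list as a black line. The 10 genes lie between -0.23 and 0.78, and the target genes reach beyond 2 in both directions.

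Several of the 10 genes share bases with genes on the opposite strand, and the strand setting of the counting is not given in the sources used here. In GENCODE M39, *Psd* covers 24.5% of the merged exons of *Nfkb2* and was itself counted 52 to 102 times per library. That annotation gives *Nfkb2* 7901 exon bases and an end at 46303812, beside 4584 bases and 46300824 in the count table. The share of the counted exons that *Psd* covers was not measured. *Nfkbib* shares 42 exon bases with *Sirt2*, which was counted 2333 to 3115 times. For *Rel*, *Relb*, *Nfkbie* and *Nfkbiz*, the genes that were higher in cKO, no overlapping gene was annotated.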

How the data were processed

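RNA sequencing of 3 WT and 3 cKO stimulated cultures labelled as osteocytes was analysed, grouped by the genotype and number in the sample titles. Paired-end reads had been trimmed and mapped by the authors to mm39 (GRCm39) with HISAT2 (2.0.5 in the submitters' notes), and assigned to genes with featureCounts (1.55.0-p3 in the notes, another release in the methods); the deposited values are raw counts per gene with a gene length in bases. From the counts, edgeR 4.0.16 in R 4.3.3 was run with filterByExpr, TMM scaling, glmQLFit and glmQLFTest on genotype alone, with Benjamini-Hochberg adjustment over 17146 genes. CPM are counts per 1000000 of the TMM-scaled library. Intervals are at 95%. At these depths the 10 genes had at least 326 counts per library. The biological coefficient of variation was 8.36%.

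The 10 genes and all lists were chosen with earlier results of these data known. Those named are all 10, the 5 higher and 5 lower genes of the signalling and target lists with the smallest p-values, and *Chuk*, *Ikbkb*, *Ikbkg*, *Map3k14*, *Bcl3*, *Nfkbid* and *Gsdmd*. Further signalling genes in the closing section were named after their values had been seen. Marker lists covered macrophages, osteocytes, osteoblasts, osteoclasts, endothelial cells, lymphocytes, neutrophils and chondrocytes. Alternatives were DESeq2 1.42.0, limma-voom (limma 3.58.1), other scalings, other filters, halved counts, a replicate block, a fold limit and each library left out. The procedure was tested on simulated data in which 200 genes were changed. There edgeR recovered 59 of 97 tested changes of 0.5 in log2 size and 82 of 98 changes of 1, with 14 false calls. Smaller changes were not simulated. The other experiments of the study were not analysed here.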

Additional observations from a re-analysis of the deposited data

How the results depend on the processing

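*Rel*, *Relb*, *Nfkbia*, *Nfkbie* and *Nfkbiz* kept their direction and passed the test under all 15 alternative settings. With a log2 fold change of at least 1 required, 0 of the 10 genes were higher and 0 lower, beside 6.56% and 4.64% of all tested genes. In the signalling list 4 were then higher and 0 lower, and in the target list 9 and 3. Without that limit, DESeq2 and limma-voom each called 4 of the 10 genes higher and 2 lower. Over all genes, DESeq2 called 3194 higher and 3252 lower of 27649, and limma-voom 3495 and 3297 of 17146. With 1 library left out, 4 to 5 of the 10 genes were higher and 1 to 3 lower, 17 to 19 signalling genes were higher and 4 to 8 lower (4 without cKO replicate 3, 5 without cKO replicate 1), and 20 to 22 target genes were higher and 9 to 11 lower. Over all tested genes, 2942 to 3407 were higher and 2796 to 3375 lower in these fits, of 17589 to 17768 genes. *Tnfaip3* lost its call when scaled by library size only (log2 fold change -0.12, adjusted p = 0.068) and among genes with at least 1 count (-0.14, adjusted p = 0.0597, edgeR), which left 1 lower gene each. Over all tested genes, 3670 were higher and 2997 lower of 17146 in the first setting, and 3570 and 3390 of 27649 in the second. Upper-quartile scaling turned *Nfkb1* to -0.023 and *Nfkbib* to -0.028, brought *Rela* past the test (-0.19, adjusted p = 0.0129) and called 13 signalling genes lower. Under it, 39.5% of all calls were higher, compared with 51.2% under TMM. With 1 library left out, *Nfkb1* lay between -0.013 and 0.11 and *Nfkbib* between -0.037 and 0.069, each lowest without WT replicate 2 and *Nfkb1* highest without WT replicate 3. The cause was not tested. The share of *Nfkb1* among the subunits, 0.076 percentage points higher in cKO, was -0.53 points without division by length and -0.26 to 0.62 points with 1 library left out, namely -0.25 without WT replicate 1, -0.14 without WT replicate 2, -0.26 without cKO replicate 3 and 0.62 without WT replicate 3. Left-out ranges of the other differences in share (cKO minus WT, percentage points) were -5.96 to -3.48 for *Rela*, 1.008 to 1.23 for *Rel*, 0.55 to 2.04 for *Nfkb2* and 2.13 to 2.76 for *Relb*. No pairing by replicate number was seen, as the correlations of same-numbered deviations lay between -0.010 and 0.0023. Whether cultures of the same number were prepared together is not given in the sources used here. With the replicate block 4 of the 10 genes were higher and 2 lower, and 19 signalling genes were higher and 7 lower. Over all 17146 tested genes, 3298 were higher and 3098 lower with the block.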

Other observations

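Genes around A20 and the ubiquitin ligases of the pathway were singled out from the signalling list after their values had been seen. Of the ligase complex that attaches linear ubiquitin, *Sharpin* and *Rnf31* were higher in cKO (log2 fold changes 0.25 and 0.27, adjusted p = 0.006 and 0.0299, edgeR), with overlapping libraries for *Rnf31*, and *Rbck1* was at 53.3 ± 3.64 CPM in WT and 53.5 ± 4.56 CPM in cKO (SD, n = 3 each). The linear deubiquitinase gene *Otulin* was higher (0.23, adjusted p = 0.0408), and *Cyld* did not pass (0.07, adjusted p = 0.269). Among genes of proteins that bind A20, *Tnip2* and *Tnip3* were higher (0.48 and 1.71), as was *Tax1bp1* (0.18), *Rnf11* was lower, and *Tnip1* and *Itch* did not pass (adjusted p = 0.466 and 0.282, edgeR). *Tnip3* was rare, with a mean of 0.557 CPM in WT and 1.82 CPM in cKO. *Ikbke*, the gene of the second IKK-related kinase, was higher together with *Tbk1* (0.44, adjusted p = 0.000104). *Malt1*, the protease that acts with BCL10, was higher (0.62, adjusted p = 3.21e-05) while *Bcl10* was lower.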
